A study of Mus musculus with 45 samples.

Results

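The Gadd45 family and the p53 response were followed through 7 genes, Gadd45a, Gadd45b, Gadd45g, Trp53, Cdkn1a, Mdm2 and Ccng1, which were chosen by name and found by their Ensembl identifiers among the 54532 genes of the count table. RNA was sequenced from hippocampal primary neurons of newborn C57BL/6N mice, grown with B27 and rat serum, given AraC on day 3 in vitro to restrain dividing cells, and treated on day 10 or 11. The neurons were untreated (control) or received bicuculline (Bic, 50 µM), a blocker of GABA type A receptors that starts action potential (AP) firing, for 0.5, 1 or 2 h. The short protocol (SP) began with 0.5 h in Bic, after which tetrodotoxin (TTX, 1 µM), which silences AP firing, was added for another 0.5 h, alone or with NMDA (30 µM). The long protocol (LP) began with 1 h in Bic, and TTX, TTX/NMDA or TBOA (50 µM), an inhibitor of glutamate uptake, was then added for another 1 h. Each of the 9 conditions had 5 libraries, which the labels number 1, 3, 6, 7 and 8. These numbers were read as culture preparations, since the paper reports experiments on separate preparations. The passive effect compares TTX with Bic left alone for as long, which is 1 h in the SP and 2 h in the LP, the active effect compares TTX/NMDA with TTX, the total effect compares TTX/NMDA with Bic, and spillover compares TBOA with 2 h Bic.

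The Gadd45 genes encode small acidic proteins that respond to stress and growth arrest, bind the kinase MTK1 upstream of p38 and JNK, and have been linked to DNA repair and active DNA demethylation. In neurons, Gadd45b and Gadd45g are known as genes induced by activity. The transcription factor p53 (Trp53) is governed mostly through the stability of its protein, which Mdm2, an E3 ubiquitin ligase and itself a p53 target, marks for degradation, while Cdkn1a (p21, an inhibitor of cyclin-dependent kinases), Ccng1 (cyclin G1) and Gadd45a are among its classic target genes.

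The total count on genes ran from 11316580 to 81129276 per library, with a median of 26239614, and each of the 7 genes had at least 51 reads in every library. Levels are given as normalised CPM, which are read counts scaled to library size with TMM factors over the 45 libraries. Conditions were compared in pairs with edgeR's quasi-likelihood test on their own libraries, with Benjamini-Hochberg adjustment over all genes that had a read, and an adjusted p-value under 0.05 counts as a call. Shares of all genes called are out of every gene with a read. Only 13592 genes had a mean of at least 1 CPM, as each of the 7 did, and shares among genes of such levels are not given. Log2 fold changes are given ± SE. Because the preparations were shared by all conditions, each comparison was also fitted with the preparation as a block after the low-count filter filterByExpr of edgeR (the paired fit), whose value is given where it changed a call. Its calls over all genes are out of the filterByExpr genes, and the share of these is not given. The 8 neuron markers examined summed to between 6437 and 8558 CPM over the libraries and 5 astrocyte markers to between 369 and 1419 CPM, and no marker of either list was at 0, so transcripts of glia were present beside those of neurons. In such bulk samples, fewer cells of a type and less RNA per cell cannot be told apart.

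All 7 genes have a promoter window in RefSeq (GRCm38.p6), and Cdkn1a has 2. Upstream sequences of 4 genes are shown, those of Gadd45b and Gadd45g because these genes moved most, and those of Cdkn1a and Mdm2 because they hold the letters of a p53 half-site. Each runs 5′ to 3′ on the strand of its gene and ends just before the first annotated transcript start, and capitals mark TATAAA or the p53 half-site on either strand.
Gadd45b (chr10:80929841-80930072, + strand): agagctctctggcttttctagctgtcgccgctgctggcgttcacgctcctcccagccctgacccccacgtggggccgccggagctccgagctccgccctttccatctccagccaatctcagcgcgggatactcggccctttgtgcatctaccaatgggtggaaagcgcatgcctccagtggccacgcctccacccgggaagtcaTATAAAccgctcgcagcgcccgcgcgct
Gadd45g (chr13:51846425-51846674, + strand): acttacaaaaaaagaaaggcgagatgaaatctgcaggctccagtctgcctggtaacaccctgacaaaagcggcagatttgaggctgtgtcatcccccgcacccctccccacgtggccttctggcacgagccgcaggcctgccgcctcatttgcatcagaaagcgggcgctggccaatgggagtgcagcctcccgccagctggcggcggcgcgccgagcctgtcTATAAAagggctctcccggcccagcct
Cdkn1a (chr17:29090729-29090975, + strand): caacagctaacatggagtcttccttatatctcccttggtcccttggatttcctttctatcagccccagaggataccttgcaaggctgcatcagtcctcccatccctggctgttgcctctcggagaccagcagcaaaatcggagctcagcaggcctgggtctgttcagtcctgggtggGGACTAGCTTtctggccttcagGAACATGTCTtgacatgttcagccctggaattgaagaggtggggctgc
Mdm2 (chr10:117710759-117711008, - strand): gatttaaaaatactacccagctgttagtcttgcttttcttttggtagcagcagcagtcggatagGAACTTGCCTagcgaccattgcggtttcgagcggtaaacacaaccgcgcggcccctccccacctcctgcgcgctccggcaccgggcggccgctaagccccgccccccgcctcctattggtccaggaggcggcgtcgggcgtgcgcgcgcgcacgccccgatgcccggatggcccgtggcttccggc
Over windows from 250 bases before to 50 bases after the RefSeq start, TATAAA was found 46 bases before the start of Gadd45b and 27 bases before that of Gadd45g, and 13.6% of 32851 windows of this length hold it on either strand. Trp53 held TATAAA on the opposite strand. A p53 half-site was found in the windows of 5 of the 7 genes (Gadd45a, Trp53, Cdkn1a, Mdm2 and Ccng1) and in 8.36% of all windows. In the upstream window of Cdkn1a it was found at 2 places, 73 and 51 bases before the start. The second window of Cdkn1a, at a RefSeq start inside the gene (chr17:29093769), held no p53 half-site. The full cAMP response element TGACGTCA (in 1.79% of windows), the AP-1 site TGACTCA or TGAGTCA (5.2%), the Egr site GCGTGGGCG or GCGGGGGCG (3.47%) and the SRF CArG box (1.63%) were in the window of none of the 7 genes. The half-site TGACG, which is also part of the full element, was found in the window of Mdm2 and in 20.8% of all windows, and an NF-kB site in that of Trp53 and in 4.51%. All motifs were searched on both strands, and such matches describe letters, not binding.

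Gadd45g and Gadd45b rose at every time point of AP firing, Gadd45a and Cdkn1a rose later and less, and Trp53, Mdm2 and Ccng1 passed the test at none of the time points. Of the 7 genes, 2 were called after 0.5 h Bic, where 0.289% of 30133 genes tested were called. After 1 h, 3 of 7 were called against 1.16% of all genes, and after 2 h, 4 of 7 against 9.02%. All of these calls were higher than the control.

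Gadd45g lies on chromosome 13 (chr13:51846678-51848468, + strand, ENSMUSG00000021453). Its level in preparations 1, 3, 6, 7 and 8 was 19.2, 20.3, 15.3, 17.8 and 22.7 CPM in the control and 128, 125, 129, 132 and 130 CPM after 0.5 h Bic. After 1 h it was 288, 200, 241, 277 and 331 CPM, and after 2 h 397, 340, 411, 340 and 310 CPM. Every stimulated library lay above every control library, and the 1 h and 2 h libraries overlapped, since preparation 8 was lower at 2 h than at 1 h. Relative to the control, Gadd45g was 6.76, 14 and 18.9 times higher at 0.5, 1 and 2 h (log2 fold changes 2.76 ± 0.09, 3.81 ± 0.11 and 4.23 ± 0.10, edgeR adjusted p = 9.7e-31, 1e-26 and 2e-26). The step from 1 to 2 h, 0.42 ± 0.09 on the log2 scale, was called as well (edgeR adjusted p = 0.0015).

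Gadd45b lies on chromosome 10 (chr10:80930073-80932204, + strand, ENSMUSG00000015312). In the same order of preparations, it was at 10.1, 8.56, 8.16, 10.8 and 9.37 CPM in the control and at 25.9, 39.3, 40.1, 37.1 and 41.3 CPM after 0.5 h Bic. It reached 90.3, 73.5, 85.2, 91.2 and 116 CPM after 1 h and 205, 160, 187, 163 and 165 CPM after 2 h. The 4 conditions did not overlap, and preparation 1 stood below the others at 0.5 h and above them at 2 h. The level was 3.91, 9.71 and 18.8 times that of the control (log2 fold changes 1.97 ± 0.11, 3.27 ± 0.11 and 4.22 ± 0.10, edgeR adjusted p = 9.5e-21, 1.6e-25 and 1.2e-26). Both further steps were called, with 1.30 ± 0.09 from 0.5 to 1 h and 0.95 ± 0.08 from 1 to 2 h on the log2 scale (edgeR adjusted p = 1.3e-18 and 2.2e-10).

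Gadd45a, the family member named as a p53 target, lies on chromosome 6 (chr6:67035096-67037457, - strand, ENSMUSG00000036390), and 337 of its 1764 exon bases are also exonic in E230016M11Rik on the opposite strand, which sense-strand counting keeps apart. It was at 4.44, 4.44, 3.67, 3.20 and 4.79 CPM in the control, at 5.62, 5.41, 6.13, 5.11 and 7.64 CPM after 1 h Bic and at 10.5, 9.98, 10.7, 8.29 and 12.6 CPM after 2 h. Preparation 7 had the lowest level in each of these conditions, and the 3 conditions did not overlap. The increase after 2 h was 2.53-fold (log2 fold change 1.35 ± 0.13, edgeR adjusted p = 9.2e-10). At 1 h, 0.56 ± 0.15 on the log2 scale was just inside the threshold (edgeR adjusted p = 0.045), and the call was lost over filterByExpr genes (adjusted p = 0.088) and without preparation 1, 6, 7 or 8 (0.064, 0.19, 0.17 and 0.089 by edgeR). At 0.5 h the log2 difference was 0.10 ± 0.16 (edgeR adjusted p = 0.94).

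Cdkn1a lies on chromosome 17 (chr17:29090976-29100727, + strand, ENSMUSG00000023067). It was at 50.1, 66.4, 49.2, 63.4 and 61.2 CPM in the control and at 97.8, 112, 95.9, 103 and 118 CPM after 2 h Bic. All 2 h libraries lay above all control libraries, and the gene was 1.81 times higher (log2 fold change 0.84 ± 0.09, edgeR adjusted p = 3e-09). At 1 h, with 71.6 ± 7.9 against 58.1 ± 7.9 CPM (mean ± SD, n = 5), every preparation was higher, by 14.6% to 31.7%, but the groups overlapped. The log2 difference of 0.29 ± 0.09 was not called (edgeR adjusted p = 0.15), and it was called in the paired fit (0.0058) and without preparation 3 (0.021).

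**Figure D1:**
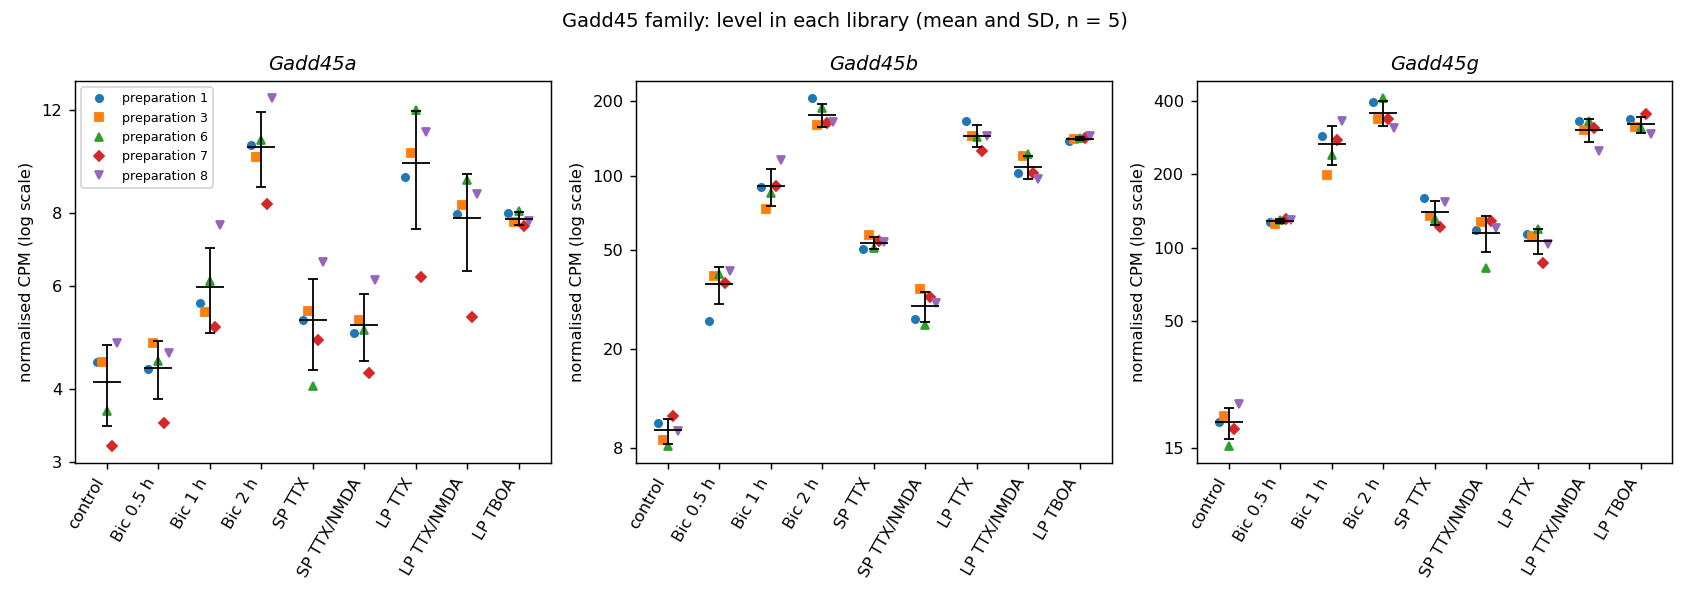
Normalised CPM (log scale) of Gadd45a, Gadd45b and Gadd45g in each of the 9 conditions, with a symbol for each culture preparation and a bar for the mean ± SD (n = 5). The mean of Gadd45g was 359 CPM after 2 h Bic, 107 CPM with LP TTX and 306 CPM with LP TTX/NMDA, and that of Gadd45b 176, 145 and 109 CPM. Both LP arms branch off after 1 h Bic, where the means were 267 CPM (Gadd45g) and 91.2 CPM (Gadd45b).

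When AP firing was silenced, Gadd45b and Gadd45g ended lower than in Bic left alone for as long in both protocols, and the other 5 genes were not called. In the passive effect, 2 of 7 genes were called in the SP, against 0.268% of all genes, and 2 of 7 in the LP, against 4.65%. In the SP, Gadd45g was at 160, 134, 130, 121 and 153 CPM with TTX, below every 1 h Bic library, and the log2 fold change was -0.94 ± 0.09 (edgeR adjusted p = 3e-09). Gadd45b was at 50.6, 57.7, 51.3, 54.7 and 54.0 CPM, again below every 1 h Bic library, with -0.77 ± 0.08 (edgeR adjusted p = 4.1e-08). At 0.5 h Bic, when TTX was added, the means were 129 CPM (Gadd45g) and 36.7 CPM (Gadd45b), against 140 and 53.7 CPM with SP TTX. The change from that level was not tested in the SP. In the LP, Gadd45g with TTX was at 113, 112, 119, 86.2 and 103 CPM, with changes from -74.6% to -66.8% relative to the 2 h Bic library of the same preparation (log2 fold change -1.76 ± 0.08, edgeR adjusted p = 4.2e-17). Gadd45b was at 167, 145, 144, 126 and 145 CPM, which overlapped 2 h Bic. Its log2 fold change of -0.29 ± 0.07 was called (edgeR adjusted p = 0.015) but not in the fit over all 45 libraries (0.08).

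The passive effect on Gadd45g was larger in the LP than in the SP, with a difference of -0.83 ± 0.13 on the log2 scale in a test of the difference over the 20 libraries concerned (edgeR adjusted p = 0.00042). That test called 1 of the 7 genes, against 0.256% of all genes. For Gadd45b the difference had the other sign, 0.48 ± 0.12, and was not called (edgeR adjusted p = 0.065), but was called in the paired fit (0.049) and without preparation 3 (0.024). Against the level at which TTX was added in the LP, that after 1 h Bic, Gadd45g had gone down (log2 fold change -1.33 ± 0.09, edgeR adjusted p = 4e-14) and Gadd45b had still gone up (0.67 ± 0.08, 1.9e-07). In this comparison 5 of the 7 genes were called, against 7.19% of all genes. Gadd45a (0.69 ± 0.14, edgeR adjusted p = 0.00054), Cdkn1a (0.44 ± 0.07, 2.3e-05) and Mdm2 (0.28 ± 0.07, 0.0058) were the other calls, all higher after the hour in TTX.

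Added NMDA moved Gadd45b and Gadd45g in opposite directions in the LP. The active effect called 1 of 7 genes in the SP, against 4.28% of all genes, and 4 of 7 in the LP, against 23.3%. In the LP, 7668 of 32852 genes with a read were called, and 7826 among the smaller set of filterByExpr genes. With LP TTX/NMDA, Gadd45g was at 330, 305, 332, 311 and 250 CPM, above every TTX library and 2.86 times higher on average (log2 fold change 1.51 ± 0.08, edgeR adjusted p = 4e-14). Gadd45b was at 103, 121, 122, 102 and 97.1 CPM, below every TTX library (-0.42 ± 0.08, edgeR adjusted p = 8.8e-05). In the SP, Gadd45b was at 29.9 ± 4.1 CPM with TTX/NMDA and at 53.7 ± 2.9 CPM with TTX (mean ± SD, n = 5). The log2 fold change was -0.85 ± 0.08 (edgeR adjusted p = 2.4e-09), and these groups did not overlap. Gadd45g was at 119, 127, 82.2, 129 and 120 CPM with SP TTX/NMDA, which overlapped TTX, and preparation 6 was lowest. Its log2 difference of -0.29 ± 0.09 was not called (edgeR adjusted p = 0.071), but was called without preparation 3, 7 or 8 (0.021, 0.0044 and 0.017).

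The active effect on Gadd45g differed between the protocols by 1.81 ± 0.14 on the log2 scale (LP minus SP, edgeR adjusted p = 9e-12), and that on Gadd45b by 0.44 ± 0.11 (0.026). These were 2 of 7 genes, against 2.57% of all genes, and the paired fit also called Ccng1 (0.26, edgeR adjusted p = 0.019). The call for Gadd45b was lost without preparation 3 or 6 (edgeR adjusted p = 0.079 and 0.15) and in the fit over all 45 libraries (0.066). Duration of NMDA and of the preceding Bic both differ between SP and LP and cannot be told apart.

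The total effect, which shares libraries with the passive and active effects, called 2 of 7 genes in the SP, against 4.3% of all genes, and 5 of 7 in the LP, against 22.8%. Gadd45b was lower than in Bic in both, with log2 fold changes of -1.61 ± 0.10 in the SP and -0.71 ± 0.08 in the LP (edgeR adjusted p = 3.4e-15 and 1.2e-08). Gadd45g was lower in the SP, with -1.22 ± 0.10 (edgeR adjusted p = 4.1e-11). In the LP its level was 0.85 times that of 2 h Bic, with overlapping groups, and the call at -0.25 ± 0.08 (edgeR adjusted p = 0.025) was lost over filterByExpr genes (0.063), in the fit over all 45 libraries (0.082) and without preparation 1 or 6 (0.073 and 0.071). Gadd45a was at 7.97, 8.25, 9.12, 5.32 and 8.61 CPM with LP TTX/NMDA, lower than 2 h Bic in 5 of 5 preparations, with a total effect of -0.42 ± 0.12 (edgeR adjusted p = 0.013). Its active effect of -0.31 ± 0.15 was not called (edgeR adjusted p = 0.14), but was called in the paired fit (0.0024) and without preparation 7 (0.047). Cdkn1a was at 109 ± 14 CPM with LP TTX/NMDA and 105 ± 9.4 CPM after 2 h Bic (mean ± SD, n = 5), a log2 difference of 0.05 ± 0.08 (edgeR adjusted p = 0.71).

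**Figure D2:**
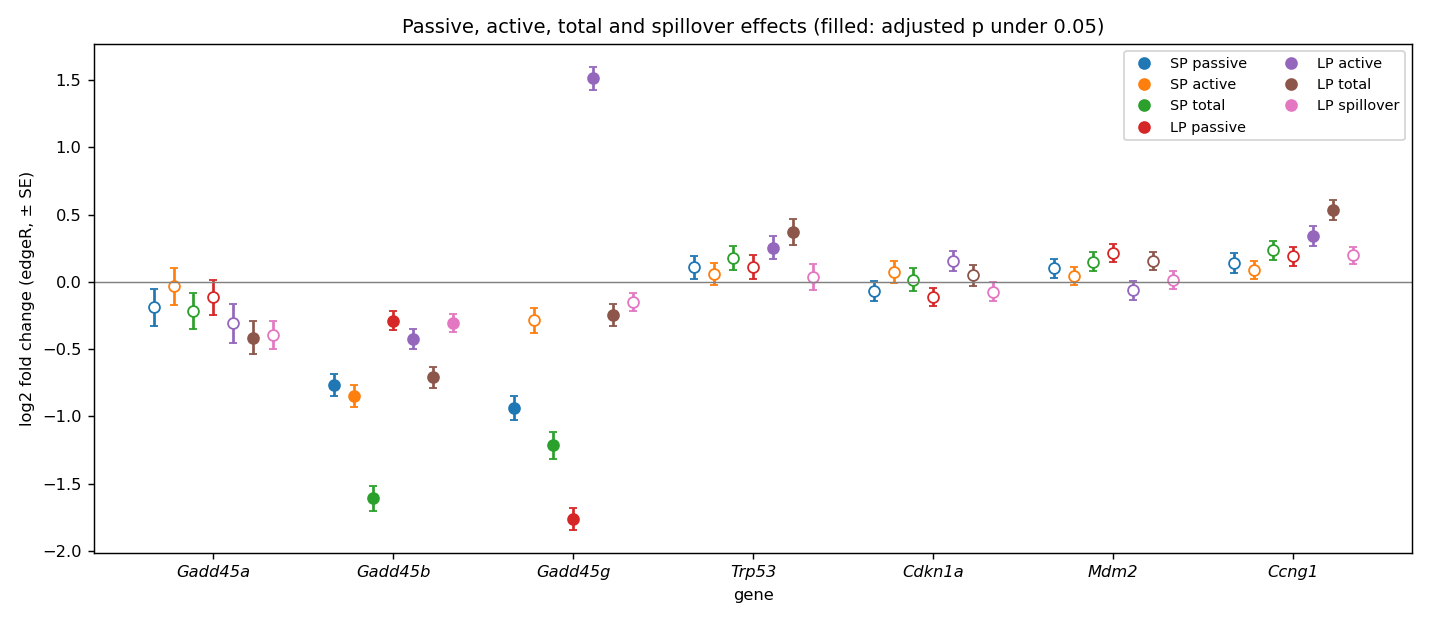
Log2 fold change (edgeR, ± SE, 5 libraries per condition) of each of the 7 genes in the passive, active, total and spillover comparisons, with filled points for an adjusted p-value under 0.05. Gadd45g had the largest negative value, -1.76 in the LP passive effect, and the largest positive value, 1.51 in the LP active effect.

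Trp53 and Ccng1 rose with NMDA in the LP. Trp53 lies on chromosome 11 (chr11:69580359-69591873, + strand, ENSMUSG00000059552), and its mean stayed between 13.2 and 17.1 CPM over the 9 conditions. It was at 14.6, 14.8, 12.9, 14.5 and 14.5 CPM with LP TTX and at 17.8, 15.9, 16.6, 15.9 and 19.2 CPM with LP TTX/NMDA. The groups did not overlap, and the log2 fold change was 0.25 ± 0.09 (edgeR adjusted p = 0.034), a call that was lost without preparation 1, 6 or 8 (0.096, 0.15 and 0.12). Against 2 h Bic the total effect was 0.37 ± 0.10 (edgeR adjusted p = 0.0043). During AP firing alone, Trp53 had log2 differences of -0.07 ± 0.10, -0.05 ± 0.10 and -0.16 ± 0.10 at 0.5, 1 and 2 h (edgeR adjusted p = 0.92, 0.9 and 0.41).

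Ccng1 lies on the same chromosome (chr11:40748552-40755311, - strand, ENSMUSG00000020326). It was at 97.1, 115, 90.9, 109 and 106 CPM after 2 h Bic, at 103, 125, 115, 131 and 120 CPM with LP TTX and at 150, 165, 126, 157 and 158 CPM with LP TTX/NMDA. All TTX/NMDA libraries lay above all 2 h Bic libraries, while preparation 6 kept the TTX/NMDA and TTX groups overlapping. The active effect was 0.34 ± 0.08 and the total effect 0.53 ± 0.07 on the log2 scale (edgeR adjusted p = 0.00093 and 8.7e-07). In the SP the total effect was 0.23 ± 0.07 and just missed the threshold (edgeR adjusted p = 0.052), and it was called in the paired fit (0.0029), by DESeq2 (0.027) and without preparation 3 (0.013).

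Mdm2 lies on chromosome 10 (chr10:117688875-117710758, - strand, ENSMUSG00000020184) and had condition means between 41.4 and 50.6 CPM. It was at 44.8, 40.6, 42.4, 45 and 44.1 CPM after 2 h Bic and at 46.1, 48.8, 53, 52.4 and 53 CPM with LP TTX, without overlap. The passive effect of 0.21 ± 0.07 on the log2 scale just missed the threshold (edgeR adjusted p = 0.051). It was called over filterByExpr genes (0.032), by DESeq2 (0.0079), in the paired fit (0.0025), in the fit over all 45 libraries (0.024) and without preparation 1 (0.023). The active effect on Mdm2 was -0.06 ± 0.07 (edgeR adjusted p = 0.53). The LP total effect, 0.15 ± 0.07, was not called (edgeR adjusted p = 0.11) and was called in the paired fit (0.011), over filterByExpr genes (0.016), by DESeq2 (0.047) and in the fit over all 45 libraries (0.04).

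The paired fit made further calls of small size. In the LP passive effect it called Ccng1 at 0.18 (adjusted p = 0.004, edgeR) and Cdkn1a at -0.12 (0.034), which with Gadd45b, Gadd45g and Mdm2 made 5 of the 7 genes. There it called 4978 of the filterByExpr genes, against 1485 of 31944 genes unpaired. In the LP active effect it called Cdkn1a at 0.17 (edgeR adjusted p = 0.018, against 0.17 unpaired and 0.049 without preparation 8), and in the SP total effect Mdm2 at 0.14 (0.026), which with Gadd45b, Gadd45g and Ccng1 made 4 of 7 genes. In the SP total effect it called 4217 of the filterByExpr genes, against 1351 of 31414 genes unpaired. Between LP TTX and 1 h Bic it added Ccng1 at 0.18 (edgeR adjusted p = 0.016). For the step from 0.5 to 1 h Bic, in which 2 of 7 genes were called against 0.677% of all genes, it added Gadd45a (0.44, edgeR adjusted p = 0.045) and Cdkn1a (0.25, 0.038). For the step from 1 to 2 h, 4 of 7 genes were called against 5.33% of all genes, with Gadd45a at 0.79 ± 0.12 and Cdkn1a at 0.55 ± 0.07 on the log2 scale (edgeR adjusted p = 1.4e-05 and 1.5e-06).

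**Figure D3:**
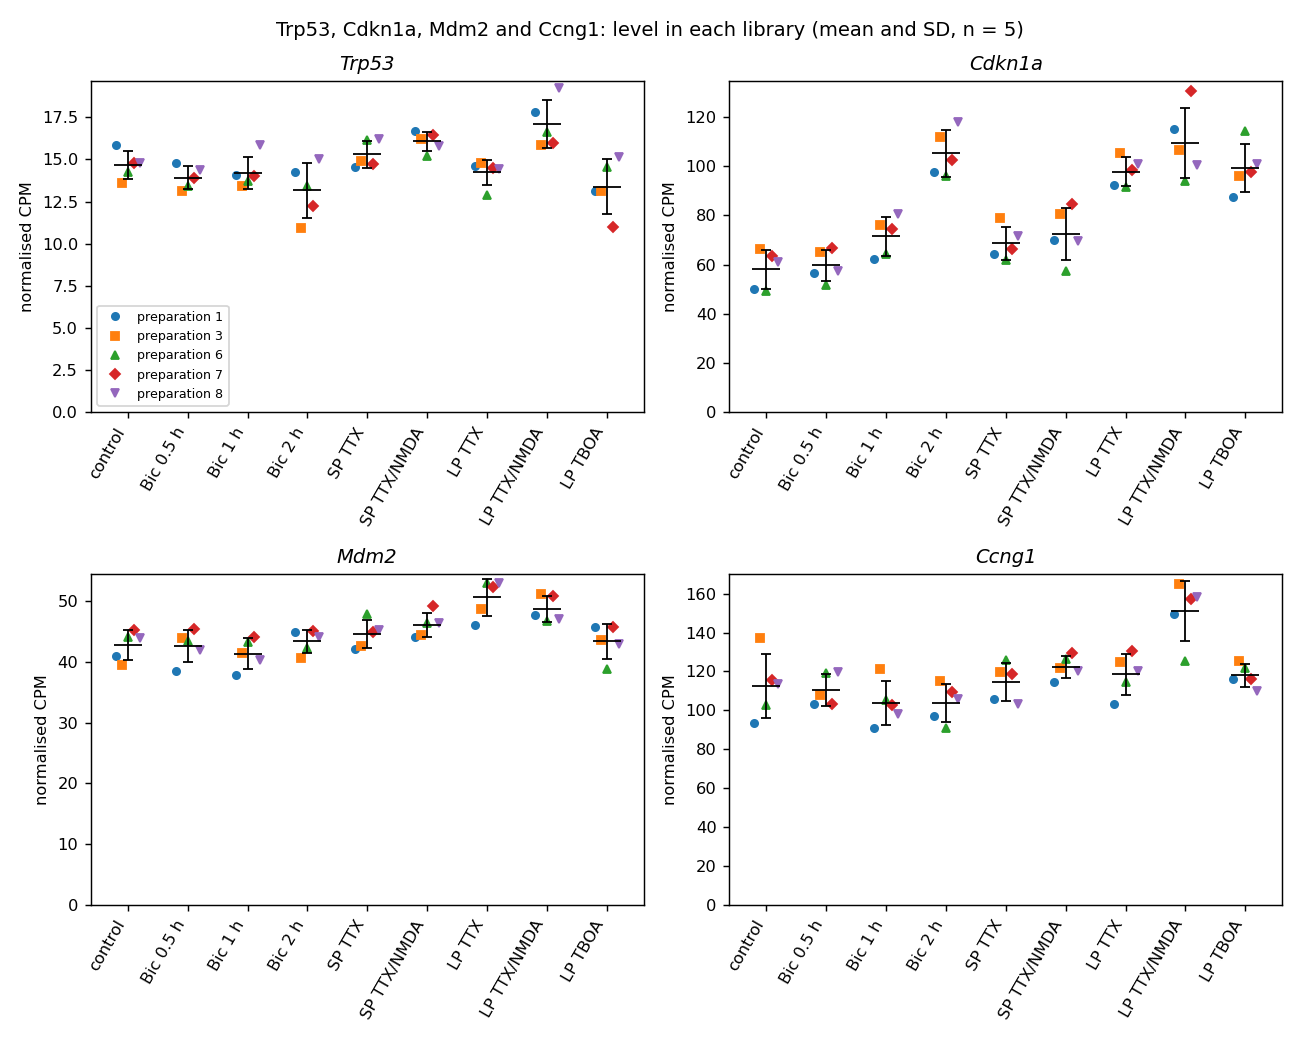
Normalised CPM of Trp53, Cdkn1a, Mdm2 and Ccng1 in each of the 9 conditions on axes that start at 0, with a symbol for each culture preparation and a bar for the mean ± SD (n = 5). Trp53 and Ccng1 had their highest mean with LP TTX/NMDA (17.1 and 151 CPM) and Mdm2 with LP TTX (50.6 CPM).

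Glutamate spillover during AP firing called 1 of the 7 genes, against 0.602% of all genes. With LP TBOA, Gadd45b was at 138, 141, 142, 142 and 145 CPM, below every 2 h Bic library, with a log2 fold change of -0.31 ± 0.06 (edgeR adjusted p = 0.011). This call was lost over filterByExpr genes (0.058), in the fit over all 45 libraries (0.15) and without preparation 1 or 6 (0.19 and 0.052). Gadd45a was at 7.98, 7.73, 8.05, 7.59 and 7.76 CPM, also below every 2 h Bic library. Its log2 difference of -0.40 ± 0.10 was not called (edgeR adjusted p = 0.065), and it was called in the paired fit (0.027), by DESeq2 (0.013) and without preparation 7 (0.022). Gadd45g, at 322 ± 24 against 359 ± 43 CPM (mean ± SD, n = 5), had a log2 difference of -0.15 ± 0.07 (edgeR adjusted p = 0.59).

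LP TTX/NMDA was the only intervention also tested against the control, and this comparison called 5 of 7 genes, against 19.5% of all genes. Gadd45g was 16 and Gadd45b 11.6 times higher (log2 fold changes 4 ± 0.11 and 3.53 ± 0.10, edgeR adjusted p = 3.2e-27 and 2.8e-26). Gadd45a (0.95 ± 0.15, edgeR adjusted p = 7.5e-06), Cdkn1a (0.91 ± 0.10, 2.8e-09) and Ccng1 (0.42 ± 0.09, 0.00081) were higher too. Trp53 at 0.22 ± 0.10 and Mdm2 at 0.18 ± 0.08 were not called (edgeR adjusted p = 0.12 and 0.13), and both were called in the paired fit (0.018 and 0.019), over filterByExpr genes (0.037 and 0.027) and in the fit over all 45 libraries (0.034 and 0.021). DESeq2 called Mdm2 as well (0.043).

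The order of the 9 condition means differed between the genes. Gadd45g ran from the control, set apart below the rest, through LP TTX (107 CPM), SP TTX/NMDA (115), 0.5 h Bic (129) and SP TTX (140), whose neighbours overlapped, and after a gap through 1 h Bic (267), LP TTX/NMDA (306), LP TBOA (322) and 2 h Bic (359), whose neighbours overlapped again. For Gadd45b, neighbours overlapped only between SP TTX/NMDA (29.9 CPM) and 0.5 h Bic (36.7), between 1 h Bic (91.2) and LP TTX/NMDA (109), and from LP TBOA (141) over LP TTX (145) to 2 h Bic (176). For Gadd45a, Trp53, Mdm2 and Ccng1 every neighbour overlapped the next. For Cdkn1a the 1 gap lay between SP TTX/NMDA (72.5 CPM) and LP TTX (97.8), which set the 4 conditions of 2 h total duration above the others. Per kilobase of exon, the control levels were highest for Ccng1 (32 CPM per kb), followed by Cdkn1a (16.3), Gadd45g (16.2), Mdm2 (8.41), Gadd45b (5.91), Trp53 (3.62) and Gadd45a (2.33). After 2 h Bic, Gadd45g (306) and Gadd45b (111) were the highest of the 7.

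For genes whose log2 condition means spanned at least 0.5, the 3 most similar patterns were sought among 4859 genes by Pearson's r over the 9 condition means, as a description of points that share their libraries. Gadd45g was most like Ier2 (r = 0.986), Nr4a1 (0.980) and Arl4d (0.977), and Gadd45b was most like Maff (0.979), Rasl11a (0.978) and Rassf1 (0.977). Gadd45a was most like Chaf1b (0.994), Plat (0.993) and Tsku (0.989). Cdkn1a was most like Rbm4b (0.991), Hnrnpa2b1 (0.990) and Plcd1 (0.985), and Ccng1 was most like Cpne3 (0.983), Erbin (0.983) and Chpt1 (0.980). No gene recurred among the 5 sets. Trp53 and Mdm2 spanned only 0.37 and 0.29 on the log2 scale and were not searched.

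A list of 29 other genes linked to p53 as targets was read beside them. After 2 h Bic, 6 of 29 were higher and 0 lower by edgeR, against 4.24% and 4.78% of all genes, and the paired fit called 6 higher and 6 lower. By DESeq2 2 were lower, and over filterByExpr genes, in the fit over all 45 libraries and without preparation 3, 6, 7 or 8, 1 was. The leading ones were Btg2, an antiproliferative immediate early gene (log2 fold change 3.52 ± 0.11), and Plk2, a kinase of activated synapses (2.17 ± 0.08), followed by Ddit4 and Sesn2, both inhibitors of mTOR signaling (0.66 ± 0.08 and 0.63 ± 0.12). In the LP passive effect 2 were higher and 4 lower, against 3.03% and 1.62% of all genes, among them Btg2 at -2.61 ± 0.13, and the paired fit called 5 in each direction. Without preparation 3 or 8 the higher ones were 1, without preparation 6 or 7 they were 0, and in the fit over all 45 libraries they were 0. In the LP active effect 12 of 29 were higher and 5 lower, against 11.6% and 11.8% of all genes, with a median log2 fold change of 0.27 against 0.11 over all genes. The paired fit, which called 10184 genes in all here (7668 unpaired), called 18 of the 29 higher and 6 lower. The 4 largest changes were Btg2 (2.65 ± 0.12), the death receptor gene Tnfrsf10b (0.99 ± 0.17), the receptor gene Eda2r (0.95 ± 0.15) and Trp53inp1, an activator of p53 signaling (0.81 ± 0.13). The pro-apoptotic Bax rose by 0.52, whereas Bbc3, at 0.39, and Pmaip1, at 0.02, were not called (edgeR adjusted p = 0.054 and 0.9). Those lower were Sesn2, Fbxw7, Tigar, Rrm2b and Apaf1, between -0.42 and -0.31. In the LP total effect 14 were higher and 5 lower, against 11.7% and 11.1% of all genes, led by Eda2r (1.12 ± 0.14) and Trp53inp1 (1.07 ± 0.12). The paired fit, which called 9027 genes in all (7361 unpaired), called 17 higher and 6 lower. Without preparation 1 the lower ones were 3. Spillover called 1 of 29, Plk2 at -0.28 ± 0.06, against 0.0536% of all genes higher and 0.549% lower, and the paired fit called 1 in each direction. Over filterByExpr genes and without preparation 1 or 6, 0 were lower. Without preparation 3 or 7, 1 was higher, and without preparation 8, 2 were.

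**Figure D4:**
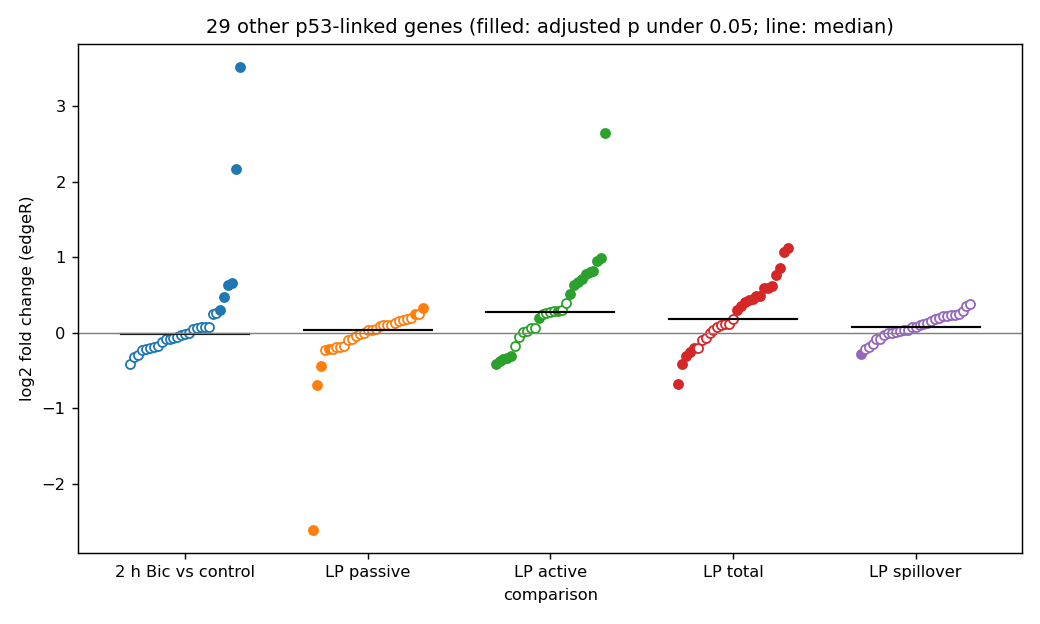
Log2 fold changes (edgeR) of 29 other genes linked to p53 as targets, ordered by value within each of 5 comparisons, with filled points for an adjusted p-value under 0.05 and a line at the median. In the LP active effect the median was 0.27 and 12 genes were higher, led by Btg2 at 2.65.

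Markers of other cells moved in the same comparison. In the LP active effect, all 5 astrocyte markers were called higher (median log2 fold change 0.84), and so were 3 of 3 fibroblast, 3 of 3 dividing-cell, 3 of 5 oligodendrocyte lineage and 1 of 5 microglia markers and 0 of 3 endothelium markers, whereas 3 of 8 neuron markers were lower. Of all genes in this comparison, 11.6% were called higher and 11.8% lower. In the LP total effect, too, 5 of 5 astrocyte markers were higher (median 0.92), as they were with LP TTX/NMDA relative to the control (median 1.03). The summed astrocyte markers ran from 412 to 743 CPM after 2 h Bic, from 384.5 to 798 CPM with LP TTX and from 680 to 1419 CPM with LP TTX/NMDA. Those of dividing cells ran from 4.51 to 10.4 CPM with LP TTX and from 9.36 to 17.4 CPM with LP TTX/NMDA. No astrocyte marker was called in the LP passive effect or after 2 h Bic. The part of these cells in the rise of Trp53, Ccng1 and the p53-linked genes was not tested.

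Of 19 genes for regulators of p53 with reads, 10 were lower and 0 higher by edgeR in the LP active effect, against 11.8% and 11.6% of all genes, with a median log2 fold change of -0.30 against 0.11 over all genes. The paired fit, which called 10184 genes in all, called 12 lower and 3 higher, whereas 2 were higher over filterByExpr genes and 1 in the fit over all 45 libraries. The lower ones included the acetyltransferase gene Ep300 (-0.77 ± 0.06), the inhibitor gene Ppp1r13l (-0.55 ± 0.11), the deacetylase gene Sirt1 (-0.54 ± 0.12) and the DNA damage kinase gene Atm (-0.51 ± 0.09). In the LP passive effect Sirt1 (0.75 ± 0.11) and Ep300 (0.38 ± 0.06) were higher, against 3.03% of all genes, where the paired fit called 6. After 2 h Bic 2 were higher and 2 lower, against 4.24% and 4.78% of all genes, and the paired fit called 5 higher and 2 lower. Chek1, a checkpoint kinase gene (1.17 ± 0.17), and Ppp1r13l (0.54 ± 0.14) were higher, and Sirt1 (-0.50 ± 0.11) and the ubiquitin ligase gene Rchy1 (-0.27 ± 0.09) were lower. Without preparation 8 the higher ones were 4, and the lower ones were 1 without preparation 1, 3, 6 or 7, over filterByExpr genes and with DESeq2 size factors. Mdm4, the partner of Mdm2, was not called in the LP total effect (-0.18 ± 0.07, edgeR adjusted p = 0.087) or after 2 h Bic (0.22 ± 0.08, 0.11), and it was called in both by the paired fit (0.044 and 0.013). Of the p53 relatives, Trp73 rose in the LP active effect (0.75 ± 0.22), at means of 1.73 and 2.98 CPM, and Trp63, at under 1 CPM in each condition, had a log2 difference of -0.67 ± 0.28 there, which was not called (edgeR adjusted p = 0.087) but was called in the paired fit (0.028).

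Among 17 partners of the Gadd45 proteins in kinase signaling, the cell cycle and DNA demethylation, 3 were higher and 1 lower after 2 h Bic, against 4.24% and 4.78% of all genes. The lower ones were 2 in the paired fit and without preparation 3, and 0 without preparation 1 or 7, over filterByExpr genes and by DESeq2. The dioxygenase genes Tet2 (0.92 ± 0.11) and Tet3 (0.62 ± 0.10) and the sliding clamp gene Pcna (0.53 ± 0.08) were higher, and the base excision repair gene Apex1 (-0.33 ± 0.10) was lower. In the LP active effect 3 were higher and 6 lower, against 11.6% and 11.8% of all genes, with Tet3 at -0.69 ± 0.08 and the kinase gene Map2k6 at -0.53 ± 0.09, while the mitotic genes Ccnb1 (0.77 ± 0.24) and Cdk1 (0.70 ± 0.21) were higher. A list of 8 genes held other inhibitors of cyclin-dependent kinases, the cyclin gene Ccng2 and Gak, a cyclin G-associated kinase gene. After 2 h Bic 2 were higher and 0 lower by edgeR, against 4.24% and 4.78% of all genes, namely Cdkn1b (p27) at 0.71 ± 0.08 and Gak at 0.37 ± 0.08. In the LP active effect 2 were higher and 2 lower, against 11.6% and 11.8% of all genes. Cdkn2c (0.61 ± 0.18) and Cdkn2d (0.20 ± 0.07), both inhibitors of the INK4 type, were higher, and Gak (-0.56 ± 0.06) and Cdkn1b (-0.50 ± 0.08) were lower. The higher ones were 0 without preparation 1 and 1 without preparation 3, 6 or 7. The active effect on Cdkn1a in the LP was 0.15 ± 0.08 and was not called (edgeR adjusted p = 0.17).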

How the data were processed

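Poly-A RNA of 45 samples was sequenced by the authors with a strand-specific kit. Per the labels and the study's methods, the reads were aligned with STAR (version 2.5.4b) to GRCm38 and counted per gene of Ensembl release 94 on the sense strand with featureCounts (version 1.6.5), leaving out reads with several places or genes. The deposited counts are raw read counts per gene. All 45 columns were used, and no 2 were identical. Symbols and positions were taken from GENCODE vM21 (GRCm38), which matched 54409 of 54532 genes. Total counts varied widely between libraries, and differences in low-count genes are the least certain.

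edgeR 4.0.16 (R 4.3.3, limma 3.58.1) was run with TMM factors, glmQLFit and glmQLFTest on the libraries of the conditions compared, over genes that had a read in 1 or more of these libraries. DESeq2 1.42.0, its size factors, filterByExpr, 1 fit of all libraries, the preparation block and leaving out each preparation were the alternatives. On counts simulated for 1 comparison only, 2 h Bic against control, drawn 1 time per model, the fit over all genes with a read made more false calls than its threshold allows under each of the 5 dispersion models tried. The fit over filterByExpr genes did so under 2. Unlike the data, the counts simulated for these 2 fits held no effect of the preparation, so the share of false calls in the data was not measured. Calls near the threshold and the counts over all genes are to be read with this in mind, and member calls lost over filterByExpr genes are named. The labels give each sample a bare number, which was read as its culture preparation and taken to pair the samples. After removal of condition means, 2 libraries of the same number correlated at 0.45 on average across 13592 genes, with pairs from -0.34 to 0.79, and libraries of different numbers at -0.11. In all, 14 comparisons of conditions and 2 differences between protocols were made.

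The 7 genes and the gene lists were chosen with earlier results of these data known. All 7 genes are given in every kind of comparison. For the comparisons described list by list, up to 4 called genes with the largest change were named, with Trp63, Trp73 and Mdm4 in addition, and the genes named beyond these were chosen after their values were seen. Of 108 list genes, 1 (Trp53rk) was not found. Figures were drawn with matplotlib.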

Additional observations from a re-analysis of the deposited data

Results flagged for a closer look

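In groups of 5 libraries, a sample was noted when its distance from the nearest other exceeded 0.71 of the range of the group, which chance gives in about 1 of 20 groups. Of the 63 groups (7 genes in 9 conditions), 4 had such a sample. Gadd45b was at 25.91 CPM in preparation 1 after 0.5 h Bic, against 37.1 to 41.34 CPM in the others. Gadd45g was at 82.22 CPM in preparation 6 with SP TTX/NMDA, against 118.5 to 128.9 CPM. Trp53 was at 15.86 CPM in preparation 8 after 1 h Bic, against 13.44 to 14.07 CPM, and at 12.91 CPM in preparation 6 with LP TTX, against 14.45 to 14.77 CPM.

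The protocols differed in 3 tests of the difference between them (edgeR, LP minus SP, log2 scale). The active effect on Gadd45g differed by 1.81 and that on Gadd45b by 0.44, and the passive effect on Gadd45g differed by -0.83.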

How the results depend on the processing

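The 10 alternatives gave 1120 log2 fold changes of the 7 genes, of which 1026 kept direction and side of the threshold, 20 lost and 40 gained a call, and 34 changed sign, in 14 results, with no call among these 34 (lowest adjusted p 0.86). With the replicate block over filterByExpr genes, the genes called became 4 for the step from 0.5 to 1 h Bic, 4 for SP total, 5 for LP passive, 2 for spillover and 2 for the passive difference between protocols. In several other comparisons, among them LP active and LP total, the count rose as well, by a smaller factor. The block ended none of the calls of the 7 genes, and those it added are named above. Spillover called 0 genes over filterByExpr genes, 2 by DESeq2 and 0 in the fit over all 45 libraries, which left 1 gene for the active difference. Leaving out 1 preparation gave 1 to 2 genes for SP active, 0 to 2 for spillover, 1 to 2 for the active and 1 to 2 for the passive difference. The cause of these changes was not tested. Over all genes, the block called 618 after 1 h Bic (357 without it), 4481 after 2 h (2789), 3607 from 1 to 2 h (1652), 2548 in SP active (1379), 4217 in SP total (1351), 4978 in LP passive (1485), 418 in spillover (191), 4527 between LP TTX and 1 h Bic (2292), and 4165 and 323 in the active and passive differences (900 and 88). DESeq2 called 2335 in LP passive, 315 in spillover, and 1632 and 181 in the differences. Over filterByExpr genes 35 were called in SP passive (85 without this filter) and 104 in spillover, and the fit over all 45 libraries called 56 in SP passive.

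The sign changes were small. Mdm2 after 0.5 h Bic was at 0.009482 with DESeq2 size factors, 0.007843 over filterByExpr genes, 0.009687 by DESeq2 and 0.009686 with the replicate block. Trp53 between LP TTX and 1 h Bic was at -0.005975, -0.008869, -0.0004058 and -0.01053 in the same order. Trp53 in the passive difference between protocols was at 0.00192 with DESeq2 size factors, 0.006168 with the replicate block and 0.004903 in the fit over all 45 libraries. Without 1 preparation each, the ranges were -0.03702 to 0.01995 (Mdm2) and -0.08563 to 0.06762 (Ccng1) after 0.5 h Bic, -0.01702 to 0.03088 (Mdm2) after 2 h, -0.001145 to 0.04335 (Trp53) from 0.5 to 1 h and -0.04254 to 0.04421 (Ccng1) from 1 to 2 h. They were -0.1195 to 0.002265 (Gadd45a) and -0.005084 to 0.1088 (Cdkn1a) in SP active, -0.03932 to 0.07454 (Cdkn1a) in SP total, -0.01302 to 0.1165 (Cdkn1a) in LP total, and -0.02202 to 0.07633 (Trp53) and -0.01381 to 0.03786 (Mdm2) in spillover. They were -0.02557 to 0.03752 (Trp53) between LP TTX and 1 h Bic, and -0.1155 to 0.1489 (Gadd45a) and -0.07128 to 0.06039 (Trp53) in the passive difference. DESeq2 size factors moved the median log2 fold change of all genes by at most 0.0143.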
